A study of Homo sapiens with 42 samples.

Results

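The genes described here are 6 enzymes of cholesterol synthesis (HMGCS1, IDI1, FDFT1, SQLE, LSS and DHCR7) and 2 regulators of the pathway (INSIG1 and SREBF2). They were chosen by symbol and make up 8 of the 26228 gene rows of the deposited table. All 8 had at least 1 FPKM in at least 3 libraries, the filter that 12816 genes passed. None of the 8 is a lipoprotein receptor or another gene of cholesterol uptake, so they are called synthesis and SREBP-pathway genes below. Values are FPKM, fragments scaled to transcript length and library size, as the authors deposited them.

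RNA came from HAP1, a near-haploid human line of chronic myelogenous leukemia origin, here called WT, and from HAP1 cells whose CDK7 carries C312S. CDK7 is the kinase of TFIIH and of the CDK-activating kinase complex, and the substitution removes the cysteine that covalent CDK7 inhibitors react with. Each line was kept for 24 h with DMSO as the vehicle control, YKL at 500 nM, YKL at 2 µM, THZ531, THZ1, a combination labelled 500 nM or a combination labelled 2 µM, with 3 libraries in each of the 14 groups. YKL is read as the selective covalent CDK7 inhibitor named by the title of the series, THZ531 is a covalent inhibitor of CDK12 and CDK13, and THZ1 is a covalent inhibitor of CDK7 that also binds CDK12 and CDK13. The labels of the combinations name no compound, and their column names carry the codes of both THZ531 and YKL, so they are read as THZ531 with YKL. No dose of THZ531 or THZ1 is stated, so the responses to the 3 compounds are given side by side and not compared. The labels do not say that the libraries of a group are separate cultures, so errors and p-values measure the spread between these libraries, which may be technical. They do not say either whether the C312S line is 1 clone.

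Cells make cholesterol from acetyl-CoA in a long series of steps. HMGCS1 makes HMG-CoA at the start of the mevalonate route, IDI1 interconverts the isoprenoid building blocks, FDFT1 joins farnesyl units into squalene, SQLE epoxidises squalene, LSS closes the rings to lanosterol and DHCR7 reduces the last precursor to cholesterol. SREBF2 encodes SREBP2, the membrane-bound transcription factor that is cut and released when sterols are low and then turns these genes on, its own gene included. INSIG1 holds the SREBP escort SCAP in the endoplasmic reticulum when sterols are high, and INSIG1 is itself an SREBP target, so the pathway is known for genes that move together with sterol supply.

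The promoters of the regulators and of the enzymes are shown because SREBP2 is known to act at short sterol elements next to sites for NF-Y, which binds CCAAT. Windows from 250 bases before to 50 after each annotated start were taken from RefSeq (GRCh38.p14) and searched on both strands for TCACNCCAC (a sterol regulatory element), for the CCAAT box, for CACGTG (an E-box) and for GGGCGG (a GC box). Windows of 6 of the 8 genes were searched: HMGCS1, INSIG1, IDI1, LSS, DHCR7 and SREBF2. No window of the remaining genes was part of the search, so their promoters are not described. Each line below gives a stretch of one window around its CCAAT matches, 5′ to 3′ on the strand of the gene, with the matches inside that stretch in capitals (ATTGG is CCAAT on the other strand).
SREBF2, chr22:41832960-41833015, plus strand: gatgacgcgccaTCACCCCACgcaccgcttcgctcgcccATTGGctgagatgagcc
INSIG1, chr7:155297696-155297840, plus strand: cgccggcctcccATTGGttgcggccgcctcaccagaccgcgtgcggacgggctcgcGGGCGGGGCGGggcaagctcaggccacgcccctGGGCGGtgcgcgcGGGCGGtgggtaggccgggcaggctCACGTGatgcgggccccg
HMGCS1, chr5:43313496-43313579, minus strand: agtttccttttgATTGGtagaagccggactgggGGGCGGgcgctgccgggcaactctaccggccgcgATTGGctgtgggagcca
IDI1, chr10:1048957-1049030, minus strand: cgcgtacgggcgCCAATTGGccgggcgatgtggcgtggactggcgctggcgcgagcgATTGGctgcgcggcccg
LSS, chr21:46228908-46228936, minus strand: cgcggcgctctgATTGGttgcgtgggcgt
DHCR7, chr11:71448425-71448499, minus strand: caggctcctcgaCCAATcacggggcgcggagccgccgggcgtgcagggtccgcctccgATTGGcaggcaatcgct
All 6 genes had a CCAAT match in at least 1 window. HMGCS1, IDI1 and DHCR7 have more than 1 window, and a window of each held no such match. Of all 35116 promoter windows 34.6% hold it. This share and those below are of windows and not of genes. In IDI1 a CCAAT and an ATTGG overlap by 2 bases, and all matches printed lie before the annotated start. The sterol element was matched in SREBF2, where it begins 133 bases before the start and an inverted CCAAT begins 106 bases before it, and 1.13% of all windows hold that match. The E-box was matched in INSIG1, 55 bases before the start, and in LSS behind the start, against 7.26% of all windows. The GC box was matched in all 6 genes, against 45.0% of all windows, but 1 of the 2 DHCR7 windows holds 0. These are matches of letters and not measured sites.

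In FPKM, which allows levels of different genes to be compared, FDFT1 had the highest level of the 8 in WT DMSO cells at 142 ± 7.28 (mean ± SD, n = 3, as for all group values below) and INSIG1 the lowest at 14.2 ± 0.941. IDI1 had 64.6 ± 4.34, SQLE 52.3 ± 0.494, HMGCS1 51.8 ± 1.39, DHCR7 42.5 ± 1.14, SREBF2 37.6 ± 0.754 and LSS 29.0 ± 0.712. Over the 14 groups the highest mean of a gene was between 2.01 times (SQLE) and 2.92 times (LSS) its lowest, while the median SD within groups was 2.55% (SREBF2) to 5.23% (INSIG1) of the mean. HMGCS1, IDI1, FDFT1 and SQLE were highest in C312S cells with THZ1. LSS, DHCR7 and SREBF2 were highest in WT cells with THZ1 and lowest in C312S cells with DMSO. INSIG1 stood apart from both sets, with its highest mean in WT cells with THZ531 (15.8 ± 0.628) and its lowest in WT cells with YKL at 500 nM (7.49 ± 0.212). Most neighbours in the order of the 14 means overlapped in their libraries: 9 of 13 neighbouring pairs for HMGCS1, SQLE, FDFT1 and DHCR7, 10 for INSIG1 and IDI1, and 8 for LSS and SREBF2.

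**Figure D1:**
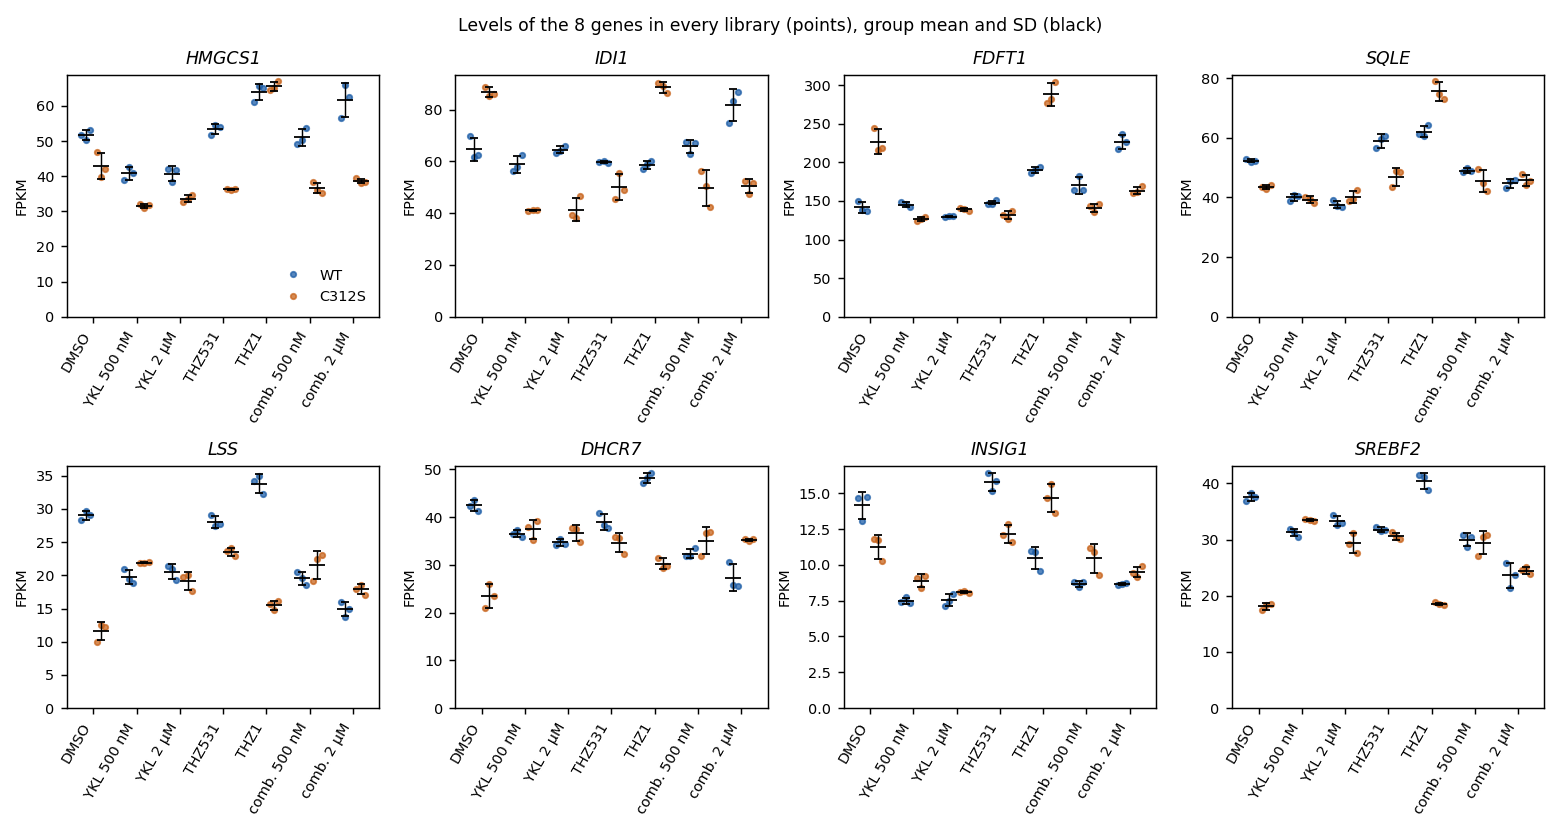
FPKM of the 8 genes (y axis, linear, from 0) in each of the 42 libraries (points) by treatment (x axis) and line, with group mean and SD in black. INSIG1 is lowest in the WT libraries with YKL, and LSS, DHCR7 and SREBF2 are lowest in the C312S DMSO libraries.

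The 8 profiles over the 14 group means formed no single pattern. LSS, DHCR7 and SREBF2 ran together, with Pearson correlations on the log2 scale of 0.941 (LSS and DHCR7), 0.903 (LSS and SREBF2) and 0.879 (DHCR7 and SREBF2). HMGCS1, FDFT1 and IDI1 ran together as well, at 0.716 for HMGCS1 and FDFT1, 0.745 for HMGCS1 and IDI1 and 0.804 for FDFT1 and IDI1. Between the sets the sign was negative for FDFT1 and SREBF2 (-0.727) and for IDI1 and DHCR7 (-0.575), while HMGCS1 had 0.0899 with LSS, -0.00562 with DHCR7 and -0.13 with SREBF2. SQLE ran with HMGCS1 (0.774) and with INSIG1 (0.764). Within WT alone, over 7 groups, LSS and SREBF2 had 0.902, FDFT1 and SREBF2 -0.471, HMGCS1 and IDI1 0.323 and HMGCS1 and LSS 0.26. Within C312S alone these were 0.92, -0.959, 0.864 and -0.562. The points share their lines and DMSO groups, so these are descriptions. The 2 sets also differ in base composition: the longest coding transcripts of LSS, DHCR7 and SREBF2 have 58.3%, 58.3% and 57.9% GC, against 40.2% for HMGCS1, 41.1% for IDI1, 46.0% for INSIG1, 46.5% for SQLE and 48.6% for FDFT1, and a median of 48.7% over the tested genes that have a value.

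Facts of the whole series that touch these genes are as follows. The C312S groups with DMSO and with THZ1 stood apart from the other 12: their summed gene FPKM averaged 794400.0 and 852300.0, against 455900.0 to 628300.0 elsewhere. Across genes, the change between C312S and WT under DMSO followed transcript GC content (Spearman rho = -0.55 over 12555 genes, and genes of one library are not independent). The spike-in RNAs, read relative to genes, were 2.44 log2 units higher in WT cells with THZ1 than in WT DMSO cells, 1.11 higher with the WT combination at 2 µM and 1.37 higher in C312S than WT DMSO cells (exact two-sided permutation p = 0.1 for each, the smallest that 3 against 3 libraries allow, and 0.118 adjusted over 13 comparisons). Scaling to the spike-ins therefore lowers nearly every gene in those comparisons. In C312S cells it raised the median change of all genes against DMSO, to 1.27 with THZ531 and 0.61 with the 2 µM combination. With THZ1 in C312S that median was -0.14. Shares of all tested genes are given only for the values as deposited, called the main values. Splits under other scalings are therefore not read as results about these genes. Of 12 blood cell markers 2 exceeded 1 FPKM in any library (TAL1 and CD33), the summed level of the list ran from 1.43 to 3.85 FPKM over the libraries, and PTPRC did not exceed a group mean of 0.121 FPKM. Of 10 epithelial and fibroblast markers 4 exceeded it (KRT8, KRT18, COL1A1 and VIM), with a sum of 243.7 to 552.0 FPKM. Of 8 liver markers 2 did (APOA1 and APOA2), with a sum of 0.151 to 2.63 FPKM. Fewer cells of a type and less RNA per cell cannot be told apart in such bulk libraries.

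In WT cells YKL lowered most of the 8 genes, and INSIG1 the most. INSIG1 read 14.7, 13.1 and 14.7 FPKM in the 3 DMSO libraries, 7.40, 7.73 and 7.34 with YKL at 500 nM and 7.13, 7.47 and 7.96 at 2 µM. Every treated library lay below every DMSO library, and the level in FPKM as deposited was about the same at both doses. Its log2 change, on the log2(FPKM + 1) scale used throughout, was -0.84 ± 0.06 (SE) at 500 nM (adjusted p = 1.85e-13) and -0.83 ± 0.06 at 2 µM (adjusted p = 1.59e-13). SREBF2 read 36.9, 38.4 and 37.6 FPKM with DMSO, 32.0, 31.3 and 30.5 at 500 nM and 34.3, 32.6 and 32.9 at 2 µM, lower in all treated libraries but by less. Its changes were -0.26 ± 0.05 (adjusted p = 2.21e-05) and -0.17 ± 0.05 (adjusted p = 0.00233).

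Among the enzymes, LSS had the largest fall with YKL in WT cells. It read 28.3, 29.7 and 29.1 FPKM with DMSO, 21.0, 19.4 and 18.9 at 500 nM and 21.4, 21.0 and 19.2 at 2 µM, with no overlap between treated and control libraries (log2 change -0.53 ± 0.07, adjusted p = 3.13e-08, and -0.48 ± 0.07, adjusted p = 1.88e-07). SQLE, the squalene epoxidase, read 52.9, 52.0 and 52.1 FPKM with DMSO, 38.7, 40.9 and 40.4 at 500 nM and 39.0, 37.2 and 36.8 at 2 µM, again without overlap (-0.38 and -0.47). HMGCS1 fell by 0.34 at 500 nM and by 0.34 at 2 µM, and DHCR7 by 0.21 and 0.28. FDFT1 was not called at 500 nM (0.03, 95% interval -0.06 to 0.13, adjusted p = 0.525) and fell by 0.13 at 2 µM (adjusted p = 0.0153). IDI1 was not called at either dose (-0.13, 95% interval -0.28 to 0.02, at 500 nM), and its level at 2 µM was 64.4 ± 1.34 FPKM against 64.6 ± 4.34 with DMSO.

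By count, 0 of the 8 rose and 6 fell at 500 nM, where 31.3% of the tested genes rose and 31.7% fell. At 2 µM 0 rose and 7 fell, against 31.8% and 33.5%. The median change of the 8 was -0.30 and -0.31, against a median of all tested genes near 0. INSIG1, LSS and SQLE were called lower under each scaling tried. With libraries scaled to equal total FPKM the split became 1 risen and 3 fallen at 500 nM and 2 and 3 at 2 µM: DHCR7 changed sign at 500 nM (0.02), and IDI1 (0.29, called), FDFT1 (0.16, called), SREBF2 (0.11) and DHCR7 (0.0013) did at 2 µM. With median-ratio scaling FDFT1 at 2 µM was not called (-0.0911, adjusted p = 0.0652). In the main values the 2 doses differed little. FDFT1 was lower at 2 µM than at 500 nM (-0.16 ± 0.05, adjusted p = 0.0289), 0 of the 8 were higher and 7 were not called, against 2.14% of tested genes risen and 4.04% fallen. For INSIG1 the 95% interval of the dose difference was -0.12 to 0.13. The FDFT1 call was lost in 5 of the 6 fits that left out 1 library (change -0.18 to -0.15 over the 6) and without the filter on low values (adjusted p = 0.0503). With spike-in scaling all 8 were called higher at 2 µM than at 500 nM, among them INSIG1 (0.49, adjusted p = 0.000333). The median of all tested genes was 0.47 under that scaling.

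With THZ531 in WT cells, SQLE read 56.4, 59.5 and 60.8 FPKM, above all DMSO libraries (0.17 ± 0.05, adjusted p = 0.00457), and SREBF2 read 32.3, 31.4 and 31.7, below them all (-0.24 ± 0.05, adjusted p = 0.000176). INSIG1 read 16.4, 15.2 and 15.8 FPKM, also above the DMSO libraries (0.15 ± 0.06, adjusted p = 0.0396), but leaving out THZ531 replicate 1 or 3 or DMSO replicate 2 ended that call (adjusted p = 0.138, 0.0814 and 0.235), as did testing without the filter on low values (adjusted p = 0.0717), fitting only the groups compared (0.0828) and removing GC and length trends (0.166). The other 5 were not called: HMGCS1 0.05, FDFT1 0.06, IDI1 -0.11, LSS -0.05 and DHCR7 -0.12. In all, 2 of the 8 rose and 1 fell, against 24.0% and 22.9% of the tested genes, and 0 were called with spike-in scaling. With GC and length trends removed 1 rose and 2 fell.

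With THZ1, 5 of the 8 rose in WT cells and 1 fell, where 34.0% of the tested genes rose and 34.8% fell. FDFT1, the squalene synthase, rose most: 186, 189.6 and 193 FPKM against 150.3, 138 and 137 with DMSO, all treated libraries above all controls (0.42 ± 0.05, adjusted p = 1.75e-09). HMGCS1 rose by 0.30, SQLE by 0.24, LSS by 0.21 and DHCR7 by 0.18, and all of these rises turn into falls of about 2 log2 units with spike-in scaling, under which 0 rose and 8 fell. With equal total FPKM 2 rose and 2 fell. INSIG1 went the other way, at 10.9, 10.9 and 9.59 FPKM and below every DMSO library (-0.40 ± 0.06, adjusted p = 5.28e-07), a fall that holds under each scaling. IDI1 (-0.14, adjusted p = 0.103) and SREBF2 (0.10, adjusted p = 0.0576) were not called, although neither overlapped its controls.

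The WT combinations lowered INSIG1 about as far at both doses: 8.78, 8.43 and 8.79 FPKM at 500 nM and 8.59, 8.63 and 8.74 at 2 µM, against 14.7, 13.1 and 14.7 with DMSO. No combination library reached a DMSO library, and the changes were -0.65 and -0.65. At 500 nM LSS (-0.55), DHCR7 (-0.38) and SREBF2 (-0.32) fell with it and FDFT1 rose (0.26), while HMGCS1 (-0.02), SQLE (-0.09) and IDI1 (0.03) were not called: 1 rose and 4 fell, against 34.0% and 34.2% of the tested genes. At 2 µM all 8 were called, 3 up and 5 down, against 38.9% and 38.1%. LSS read 16.0, 13.8 and 14.9 FPKM against 28.3, 29.7 and 29.1 with DMSO (-0.92 ± 0.07, adjusted p = 7.85e-14), and FDFT1 217, 236 and 226 against 150.3, 138 and 137 (0.67 ± 0.05, adjusted p = 1.97e-14). Neither overlapped its controls, and the 2 enzymes moved in opposite directions.

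SREBF2 fell by 0.65 at the higher dose, DHCR7 by 0.62 and SQLE by 0.22, while IDI1 rose by 0.33 and HMGCS1 by 0.24. With spike-in scaling the rises turned into falls (FDFT1 -0.45, IDI1 -0.78, HMGCS1 -0.86), giving 0 risen and 8 fallen at 2 µM and 0 and 7 at 500 nM. With equal total FPKM 3 rose and 4 fell at 500 nM. At 2 µM the change across all genes followed GC content (Spearman rho = -0.459, across genes), and genes within 1 point of the GC content of LSS had a median change of -0.34, those near HMGCS1 0.30. With trends on GC content and length removed, 1 of the 8 rose and 5 fell at 2 µM: INSIG1 kept -0.81 and LSS -0.40, SREBF2 moved to -0.12, IDI1 to 0.04 and HMGCS1 to -0.06. The part of base composition in these changes was not tested further.

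**Figure D2:**
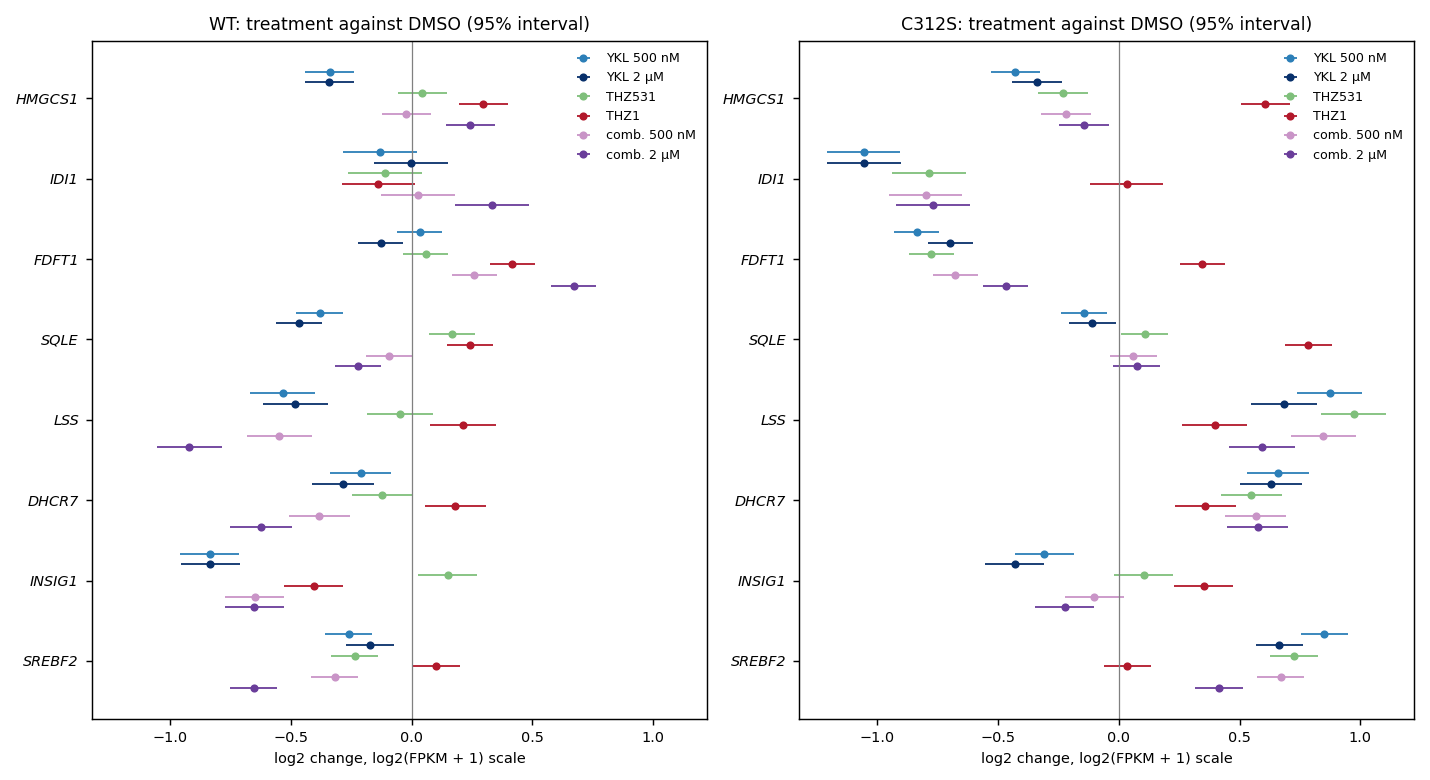
Log2 change against DMSO (x axis, log2(FPKM + 1) scale) with its 95% interval for the 8 genes under 6 treatments in WT (left) and C312S (right). INSIG1 lies between -0.84 and -0.65 under YKL and the combinations in WT, and LSS, DHCR7 and SREBF2 lie right of 0 in C312S.

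Comparing the combinations with THZ531 alone leaves out the DMSO groups. The comparison is read here as adding YKL, but the labels do not say that both hold the same dose of THZ531. In WT cells INSIG1 fell from 16.4, 15.2 and 15.8 FPKM with THZ531 to 8.78, 8.43 and 8.79 with 500 nM and 8.59, 8.63 and 8.74 with 2 µM YKL added (-0.80 ± 0.06, adjusted p = 6.84e-13, and -0.80 ± 0.06, adjusted p = 2.43e-13). In C312S cells it read 12.1, 12.9 and 11.6 FPKM with THZ531, 11.2, 10.9 and 9.32 with 500 nM added and 9.42, 9.18 and 9.89 with 2 µM added. The C312S levels did not overlap either, but the change was -0.21 ± 0.06 at 500 nM, which was not called (adjusted p = 0.145), and -0.33 ± 0.06 at 2 µM (adjusted p = 9.18e-05). Tested directly, the effect of adding YKL on INSIG1 was higher in C312S than in WT by 0.59 ± 0.08 at 500 nM (adjusted p = 1.12e-06) and by 0.47 ± 0.08 at 2 µM (adjusted p = 2.28e-05).

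At 500 nM, WT cells had 1 gene risen (FDFT1, 0.20) and 4 fallen on adding YKL: INSIG1, LSS (-0.50), SQLE (-0.26) and DHCR7 (-0.26). The background was 31.5% and 29.7%. In C312S cells 0 of the 8 were called by limma, against 0.39% of tested genes risen and 0.187% fallen, and 2 had an unadjusted p under 0.05 (INSIG1 and FDFT1). The intervals for LSS (-0.26 to 0.01), SQLE (-0.14 to 0.05) and DHCR7 (-0.11 to 0.15) lie above those of WT (-0.64 to -0.36, -0.36 to -0.16 and -0.39 to -0.13). With spike-in scaling 0 rose and 8 fell in both lines, and with equal total FPKM 2 rose and 3 fell in WT and 1 rose and 0 fell in C312S. The effects differed between the lines for SQLE (0.21), INSIG1, LSS (0.37) and DHCR7 (0.28), each higher in C312S: 4 higher and 0 lower, against 20.5% and 21.0% of tested genes. The SQLE difference was lost without replicate 1 of C312S THZ531 or of the C312S combination (adjusted p = 0.0525 and 0.0539), and under equal total FPKM it was 0.15 and that of DHCR7 0.22, neither called, for a split of 2 higher and 1 lower. With spike-in scaling 1 was higher and 0 lower.

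At 2 µM all 8 were called in WT cells on adding YKL, 3 higher and 5 lower, against 38.3% and 35.3% of the tested genes. LSS read 16.0, 13.8 and 14.9 FPKM against 29.0, 27.4 and 27.7 with THZ531 alone (-0.87), FDFT1 217, 236 and 226 against 146, 147 and 151 (0.61) and IDI1 74.9, 83.3 and 86.8 against 59.7, 60.1 and 59.4 (0.44). None of these 3 overlapped. In C312S cells 1 rose and 3 fell, against 18.5% and 16.3%: FDFT1 (0.31), LSS (-0.38), INSIG1 and SREBF2 (-0.31). IDI1, SQLE and DHCR7 were not called there, with 95% intervals of -0.13 to 0.17, -0.13 to 0.06 and -0.10 to 0.15. The difference between the lines was called for 6 genes: SQLE (0.36), INSIG1, LSS (0.49) and DHCR7 (0.53) were higher in C312S, and FDFT1 (-0.30) and IDI1 (-0.42) were lower, against 25.9% higher and 27.2% lower over all tested genes. For SREBF2, called lower in both lines, the difference was 0.11 and not called (95% interval -0.03 to 0.24). That difference was called without replicate 1 of the WT combination (0.17, adjusted p = 0.0236), with spike-in scaling (0.50, adjusted p = 0.013) and, in the other direction, with GC and length trends removed (-0.20, adjusted p = 2.56e-05), where the WT change of SREBF2 was -0.0055 and not called (adjusted p = 0.857). With spike-in scaling 0 rose and 8 fell in each line at 2 µM, and the difference was called higher for 5 genes and lower for 0, with FDFT1 at 0.11. With GC and length trends removed 2 rose and 4 fell in WT and the differences split 4 to 3.

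**Figure D3:**
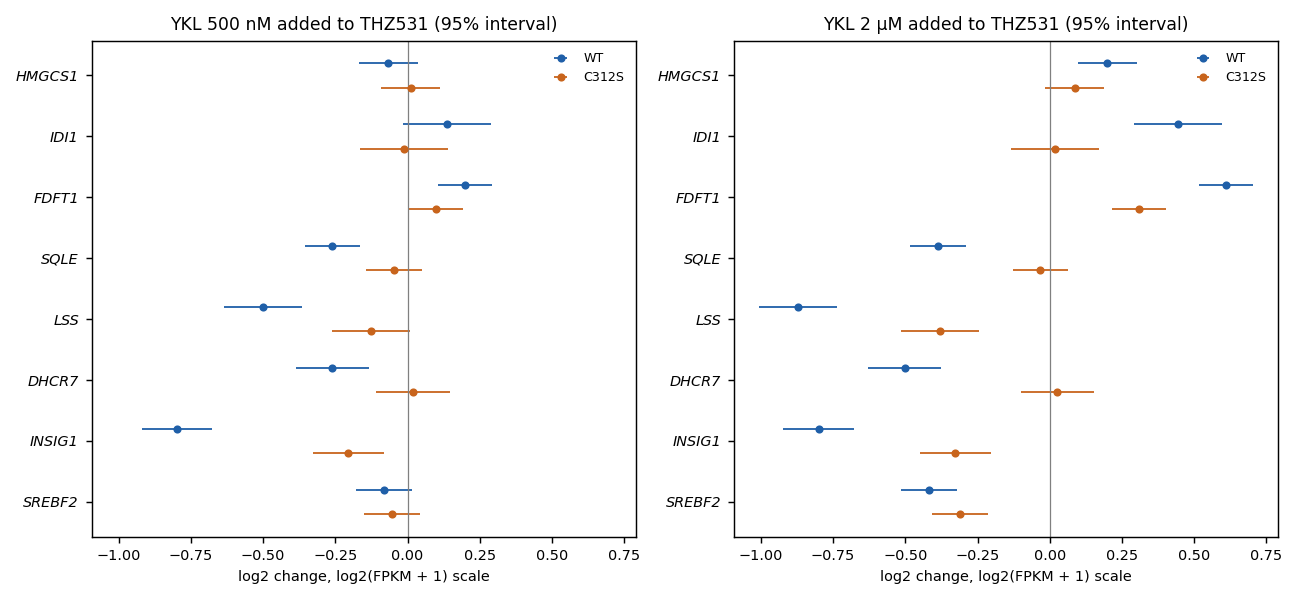
Log2 change on adding YKL at 500 nM (left) or 2 µM (right) to THZ531 (x axis, log2(FPKM + 1) scale) with its 95% interval, for WT and C312S. The WT points of INSIG1 and LSS lie left of the C312S points at both doses.

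Against their own DMSO libraries, C312S cells showed a pattern shared by all treatments but THZ1. LSS read 10.0, 12.5 and 12.2 FPKM with DMSO, 21.9, 21.9 and 21.9 with YKL at 500 nM, 19.8, 20.1 and 17.6 at 2 µM and 23.6, 24.1 and 22.9 with THZ531. Treated libraries were above controls throughout, with changes of 0.87, 0.69 and 0.97. SREBF2 read 17.5, 18.4 and 18.5 with DMSO and 33.7, 33.5 and 33.2, 29.3, 31.2 and 27.6 and 31.3, 30.5 and 30.1 in the same order (0.85, 0.67 and 0.73). In the opposite direction, IDI1 read 88.8, 85.1 and 86.0 with DMSO and 41.0, 41.4 and 41.1, 39.4, 38.3 and 46.5 and 45.4, 55.4 and 49.1 (-1.06, -1.05 and -0.79), and FDFT1 changed by -0.84, -0.70 and -0.78. None of these groups overlapped its DMSO libraries, and the C312S DMSO libraries are those whose total FPKM stood apart.

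With YKL, 3 of the 8 rose in C312S (LSS, DHCR7 and SREBF2) and 5 fell (HMGCS1, IDI1, FDFT1, SQLE and INSIG1) at both doses, against 36.9% and 39.6% of the tested genes at 500 nM and 36.6% and 39.2% at 2 µM. INSIG1 read 11.8, 11.7 and 10.3 FPKM with DMSO, 9.07, 8.38 and 9.24 at 500 nM and 8.08, 8.17 and 8.04 at 2 µM, below the controls in all libraries (-0.31 and -0.43). SQLE changed by -0.14 and -0.11, and the second call was lost in 4 of 6 fits without 1 library (-0.15 to -0.08). THZ531 gave 4 risen and 3 fallen, against 34.6% and 39.5%, with SQLE at 0.11 (lost in 5 of 6 such fits, 0.08 to 0.16, and overlapping its controls) and INSIG1 not called (0.10). The combinations gave 3 and 3 at 500 nM, against 35.0% and 38.4%, and 3 and 4 at 2 µM, against 32.8% and 35.9%, with INSIG1 at -0.10 (not called) and -0.22 (called, 9.42, 9.18 and 9.89 FPKM). The first ran from -0.16 to -0.03 over 6 fits without 1 library, and was called without C312S DMSO replicate 3 (adjusted p = 0.0261) or combination replicate 1 (adjusted p = 0.0439). HMGCS1 was called lower at both (-0.22 and -0.14). The second call was lost without C312S DMSO replicate 1 (-0.08, adjusted p = 0.173) and with only the groups compared (adjusted p = 0.0867). HMGCS1 was called higher at both with equal total FPKM (0.28 and 0.27) and with spike-in scaling (0.99 and 0.67). The same held with GC and length trends removed (0.13 and 0.18).

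These C312S splits depend on the scaling. Where the main values gave 3 risen and 5 fallen with YKL, equal total FPKM gave 4 and 2 at 500 nM and 5 and 2 at 2 µM, and spike-in scaling 7 and 0 at both. For THZ531 the splits were 6 and 2 and 8 and 0, for the combination at 500 nM 6 and 2 and 8 and 0, and for that at 2 µM 6 and 1 and 7 and 0. The median change of all tested genes rose under these scalings too. With YKL at 500 nM it went from -0.015 to 0.35 with equal total FPKM and 0.86 with spike-in scaling. With THZ531 it went from -0.03 to 0.33 and 1.27. The changes of IDI1 and FDFT1, called lower here, were above 0 with spike-in scaling under YKL, THZ531 and both combinations, and those of HMGCS1, SQLE and INSIG1 with YKL were above 0 with either scaling. The Spearman rho of change with GC content across genes was 0.585, 0.562, 0.458, 0.475 and 0.509 for YKL at 500 nM and 2 µM, THZ531 and the combinations at 500 nM and 2 µM, against -0.0963 for THZ1. After removal of GC and length trends LSS stayed called higher under YKL at 500 nM (0.29) and FDFT1 (-0.72) and IDI1 (-0.63) lower, while HMGCS1 (0.04), SQLE (0.02) and INSIG1 (-0.12, adjusted p = 0.0782) were no longer called lower. The calls of INSIG1 (-0.11, adjusted p = 0.129) and SREBF2 (0.0022, adjusted p = 0.949) with the combination at 2 µM ended as well. With median-ratio scaling SQLE was called at neither YKL dose (-0.072 and -0.0416), nor HMGCS1 with the combination at 2 µM (-0.0887). With GC and length trends removed the split was 3 and 2 with YKL at 500 nM and 4 and 3 at 2 µM. It was 6 and 2 with THZ531, and 5 and 2 and 4 and 2 with the combinations. Between the YKL doses in C312S, SREBF2 was lower at 2 µM (-0.19 ± 0.05, adjusted p = 0.0234) and 0 of the 8 were higher, against 2.02% risen and 1.65% fallen. That call was lost in 5 of 6 fits without 1 library (-0.23 to -0.14) and with equal total FPKM, which called 1 risen (FDFT1) and 0 fallen.

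THZ1 raised 6 of the 8 genes in C312S cells and lowered 0, against 33.9% and 29.7% of the tested genes. SQLE read 79.1, 74.7 and 73.0 FPKM against 43.5, 42.7 and 44.0 with DMSO (0.78 ± 0.05, adjusted p = 3.7e-15) and HMGCS1 64.6, 65.1 and 67.1 against 46.9, 39.7 and 41.9 (0.61 ± 0.05, adjusted p = 5.43e-12). INSIG1 read 14.7, 15.6 and 13.6 FPKM against 11.8, 11.7 and 10.3, above all its controls (0.35 ± 0.06, adjusted p = 6.55e-06), where in WT cells it had fallen. FDFT1 (0.35), LSS (0.40) and DHCR7 (0.36) rose as well, and IDI1 (0.03) and SREBF2 (0.04) were not called. Both groups here have the high total FPKM noted above, and with spike-in scaling 2 rose (HMGCS1 and SQLE) and 0 fell.

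The effect of THZ1 differed between the lines for 3 genes, each higher in C312S: INSIG1 (0.76 ± 0.08, adjusted p = 1.86e-08), SQLE (0.54 ± 0.07, adjusted p = 1.02e-07) and HMGCS1 (0.31 ± 0.07, adjusted p = 0.000723). The other 5 were not called, 0 were lower in C312S, and over all tested genes 22.4% were higher and 19.8% lower. With YKL, 5 of the 8 effects were higher in C312S and 2 lower at both doses, against 34.7% and 39.0% of tested genes at 500 nM and 34.4% and 37.4% at 2 µM. LSS differed by 1.41 and 1.17, SREBF2 by 1.11 and 0.84, DHCR7 by 0.87 and 0.91, INSIG1 by 0.53 and 0.40 and SQLE by 0.24 and 0.36. FDFT1 (-0.87 and -0.57) and IDI1 (-0.93 and -1.05) were lower in C312S, but above 0 with spike-in scaling, under which 8 and 7 effects were higher and 0 lower. All of these rest on the C312S DMSO libraries. Equal total FPKM gave 6 and 2 at both doses, and spike-in scaling gave 8 and 0 for THZ1. With GC and length trends removed the splits were 6 and 2, 6 and 2 and, for THZ1, 3 and 1.

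Under DMSO, C312S cells differed from WT cells in all 8 genes. LSS read 10.0, 12.5 and 12.2 FPKM against 28.3, 29.7 and 29.1 in WT (-1.26 ± 0.07, adjusted p = 8.1e-17), SREBF2 17.5, 18.4 and 18.5 against 36.9, 38.4 and 37.6 (-1.01 ± 0.05, adjusted p = 6.28e-18) and DHCR7 20.9, 25.9 and 23.4 against 42.4, 43.6 and 41.3 (-0.84 ± 0.06, adjusted p = 1.54e-13). The lines did not overlap, and these 3 genes had the largest falls of the 8. HMGCS1 (-0.27), SQLE (-0.26) and INSIG1 (-0.31) were lower too, and FDFT1 (0.67) and IDI1 (0.42) higher, 2 up and 6 down against 41.3% and 37.9% of the tested genes. With spike-in scaling all 8 were lower (FDFT1 -0.77 and IDI1 -1.01), and with equal total FPKM IDI1 was at -0.08, so that 1 rose and 6 fell.

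Genes within 1 percentage point of the GC content of LSS had a median difference of -0.35 between the lines under DMSO, and those near HMGCS1 0.40. LSS lay 0.91 below the median of its neighbours, SREBF2 0.69 and HMGCS1 0.67 below theirs, FDFT1 0.61 above, and IDI1 0.04 above. With the trends removed LSS was at -0.63, DHCR7 at -0.51, SREBF2 at -0.35 and FDFT1 at 0.51, and IDI1 was no longer called (adjusted p = 0.985), which left 1 risen and 6 fallen. Because the C312S DMSO libraries stood apart, the lines were also compared under THZ531, where rho with GC content was 0.15. There 0 of the 8 were higher in C312S and 7 were lower, against 17.0% and 13.5% of the tested genes. HMGCS1 read 36.3, 36.1 and 36.4 FPKM in C312S against 51.9, 54.6 and 53.9 in WT (-0.55 ± 0.05, adjusted p = 2.89e-10), INSIG1 12.1, 12.9 and 11.6 against 16.4, 15.2 and 15.8 (-0.35) and SQLE 43.4, 48.8 and 48.5 against 56.4, 59.5 and 60.8 (-0.32).

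Under THZ531 the differences of LSS (-0.24), IDI1 (-0.26), FDFT1 (-0.17) and DHCR7 (-0.17) were smaller than under DMSO, with IDI1 and FDFT1 on the other side of 0. SREBF2 was not called (-0.05, 95% interval -0.15 to 0.04), against -1.01 under DMSO. The call of DHCR7 was lost without WT THZ531 replicate 1 or 2 or C312S THZ531 replicate 3 (-0.19 to -0.12 over 6 fits), that of FDFT1 without C312S THZ531 replicate 2 (adjusted p = 0.0502) and that of IDI1 without C312S THZ531 replicate 1 (adjusted p = 0.0753). With spike-in scaling HMGCS1 alone of the 8 was called lower.

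**Figure D4:**
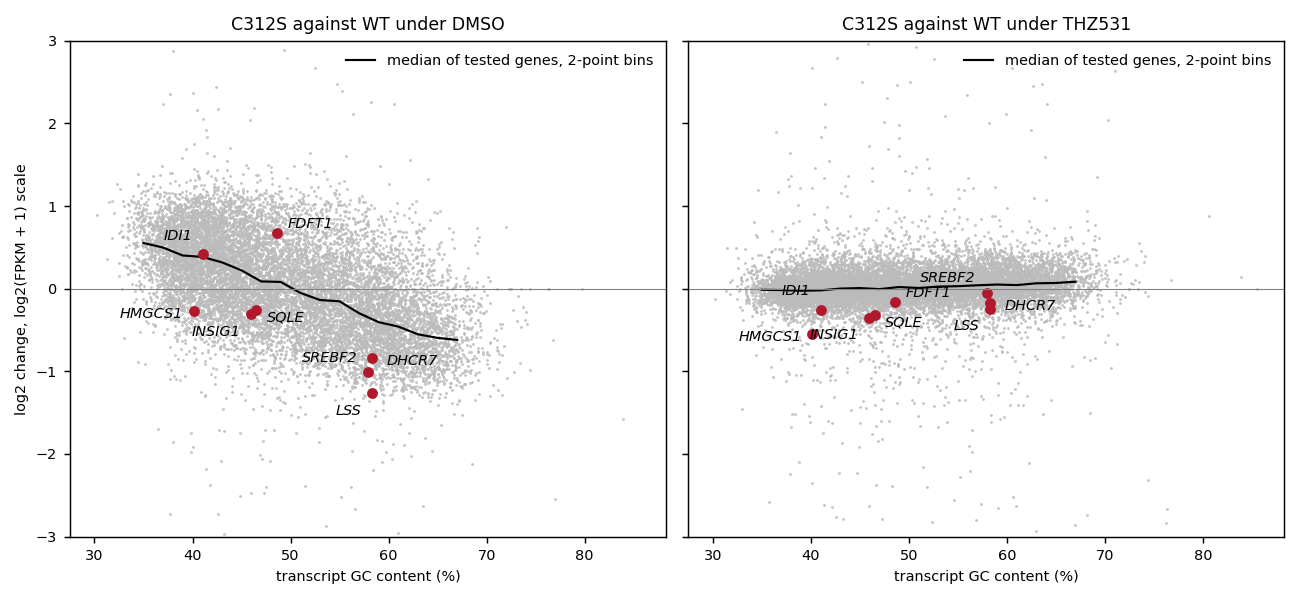
Log2 difference of C312S against WT (y axis, log2(FPKM + 1) scale, shown from -3 to 3) against transcript GC content (x axis, percent) under DMSO (left) and THZ531 (right), with the 8 genes in red, other tested genes in grey and the median in bins of GC content in black. Under DMSO the black line falls with GC content and LSS, DHCR7 and SREBF2 lie below it, while under THZ531 it is nearly flat.

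The rest of the pathway was followed through lists of related genes. Of 16 tested other enzymes of cholesterol synthesis, 3 rose and 9 fell in WT cells with YKL at 500 nM, 4 rose and 9 fell at 2 µM, 3 and 4 with THZ531, 7 and 7 with THZ1, 3 and 6 with the combination at 500 nM and 8 and 7 with that at 2 µM, over the backgrounds given above. With YKL at 2 µM, LBR, which has a sterol reductase domain, went from 59.9 ± 2.48 to 31.5 ± 0.657 FPKM (-0.91 ± 0.04, adjusted p = 2.43e-18). HSD17B7 and SC5D, enzymes of steps after ring closure, rose by 0.37 and 0.42 (HSD17B7 has a near-identical pseudogene that may share its reads). The signs of these 3 held under each scaling, but spike-in scaling ended the HSD17B7 call (0.27, adjusted p = 0.0609). The split of the list at 2 µM became 7 and 3 with equal total FPKM and 1 and 8 with spike-in scaling, and at 500 nM 6 and 1 and 0 and 15. Under the same scalings it was 5 and 4 and 1 and 3 with THZ531, 6 and 5 and 1 and 13 with the combination at 500 nM, and 6 and 7 and 1 and 15 with that at 2 µM.

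Of 18 tested regulators of SREBP, 2 rose and 11 fell with YKL at 2 µM in WT cells (8 and 3 with equal total FPKM, 1 and 10 with spike-in scaling). Over all tested genes 31.8% rose and 33.5% fell there, and the uptake and fatty acid lists lie near these shares. The median change of all tested genes was 0.25 with equal total FPKM and -0.10 with spike-in scaling. SREBF1, the gene of the other SREBP, went from 12.6 ± 0.357 to 6.01 ± 0.430 FPKM (-0.96 ± 0.09, adjusted p = 8.52e-11). Of 16 tested genes of uptake and trafficking 6 rose and 6 fell (9 and 3, and 3 and 6, under the same scalings). LIPA, the lysosomal lipase that frees cholesterol from its esters, went from 11.9 ± 0.473 to 21.8 ± 1.05 FPKM (0.82 ± 0.05) and SCARB1, the scavenger receptor for HDL, from 52.3 ± 2.04 to 34.6 ± 0.823 (-0.58 ± 0.07). SREBF1, LIPA and SCARB1 kept their sign and their call under each scaling. Of 16 genes of fatty acid synthesis 5 rose and 5 fell (12 and 1, and 1 and 3), with the desaturase FADS1 at -0.56 and the synthase FASN at -0.40, the latter not called with equal total FPKM (-0.11). Of 8 tested genes of LXR and sterol efflux 1 rose and 5 fell (2 and 3, and 1 and 5), among them the receptor partner RXRB (-0.72).

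With THZ1 in WT cells 7 and 7 of the other enzymes, 6 and 11 of the SREBP regulators, 6 and 5 of the uptake genes, 6 and 6 of the fatty acid genes and 3 and 4 of the LXR genes rose and fell, where 34.0% of all tested genes rose and 34.8% fell. LIPA rose by 1.12 and the desaturase SCD by 0.93, and the isomerase EBP fell by 0.77. With spike-in scaling both that rose were lower (LIPA -1.15 and SCD -1.48) and no list kept a riser. With equal total FPKM the enzymes split 4 and 9, the fatty acid genes 4 and 7 and the LXR genes 2 and 5.

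Adding YKL at 2 µM to THZ531 gave 9 risen and 5 fallen of the 16 other enzymes in WT and 7 and 1 in C312S, 5 and 11 against 3 and 4 of the SREBP regulators, 6 and 7 against 1 and 6 of the uptake genes, 5 and 7 against 3 and 3 of the fatty acid genes and 1 and 4 against 0 and 5 of the LXR genes. Over all tested genes 38.3% rose and 35.3% fell in WT, and 18.5% and 16.3% in C312S, so the counts of the lines are not read against each other. Adding 500 nM gave 3 and 3 of the enzymes in WT, with splits of 7 and 2 with equal total FPKM and 0 and 11 with spike-in scaling. With spike-in scaling nothing rose in any list at 2 µM in either line. Equal total FPKM gave 6 and 5 of the enzymes, 4 and 8 of the uptake genes and 3 and 10 of the fatty acid genes in WT, and 1 and 6 of the regulators and 0 and 6 of the uptake genes in C312S. With GC and length trends removed the enzymes in WT split 4 and 5. Tested between the lines, the effect of the 2 µM addition was higher in C312S for SREBF1 (0.82 ± 0.13, adjusted p = 3.52e-06), SCARB1 (0.84 ± 0.11) and LBR (0.46 ± 0.06), and lower for LIPA (-0.96 ± 0.08, adjusted p = 1.17e-11). SREBF1 read 11.1 ± 0.666 FPKM with THZ531 and 4.23 ± 0.893 with the addition in WT, and 9.26 ± 0.0775 and 6.78 ± 0.468 in C312S.

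**Figure D5:**
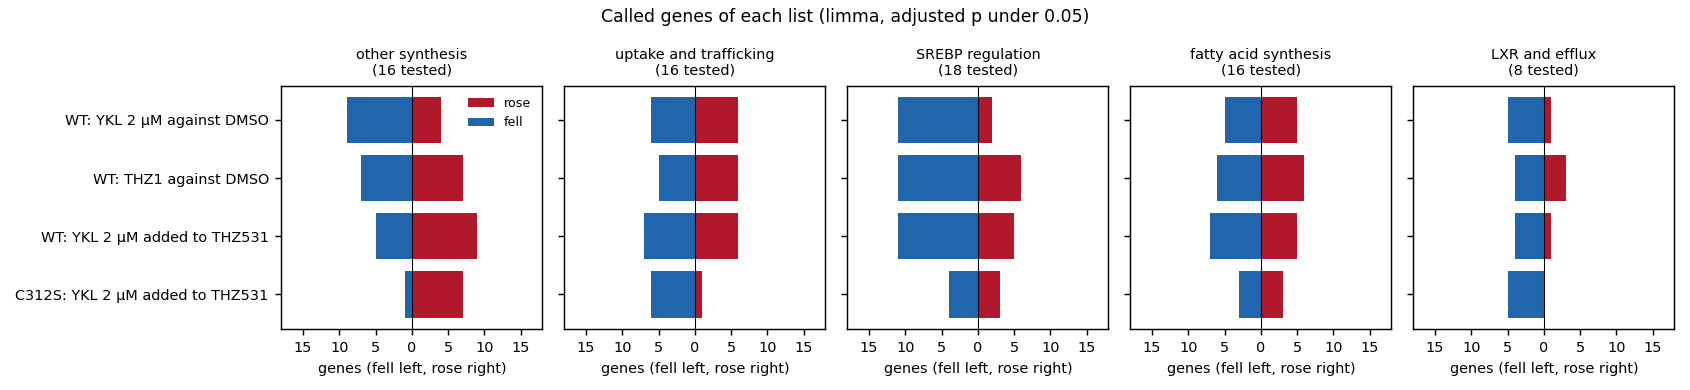
Number of genes called higher (right of 0) or lower (left of 0) in 5 lists of related genes (panels, with the number tested) for YKL at 2 µM and THZ1 in WT and for YKL at 2 µM added to THZ531 in each line. The list of SREBP regulators has 11 genes lower in each WT comparison, where 33.5% to 35.3% of all tested genes fell. It has 4 lower in C312S, where 16.3% fell, so the counts of the lines are not read against each other.

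Genes whose profile over the 14 group means lay closest to the mean profile of the 8 were, among 8694 candidates outside them with a mean of at least 5 FPKM, PROM1 (Pearson r = 0.902), IMPAD1 (0.886), RYBP (0.882), TRPM3 (0.88), MAP4K5 (0.874), PER3 (0.866), UBP1 (0.865) and TRMT44 (0.859). None of these is in the lists of cholesterol and fatty acid genes used here. The 14 points share their lines and DMSO groups, and the mean profile averages over genes with negative correlations among them, such as FDFT1 and SREBF2.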

How the data were processed

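Polyadenylated transcript levels of 42 libraries were used, 3 in each of 14 groups taken from the labels. The FPKM values are those the authors deposited. HISAT2 2.0.4, Cufflinks 2.2.1, Cuffnorm and hg19 are named in the submitters' processing notes, without their order, and no source here tells how reads shared by genes were assigned. Read depth is unknown. The 92 spike-in rows were kept apart from 26228 gene rows.

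Values were taken as log2(FPKM + 1), and 12816 genes reaching 1 FPKM in 3 or more libraries were fitted with limma 3.58.1 (R 4.3.3) as 14 group means with an intensity trend. P-values were two-sided and adjusted by Benjamini-Hochberg over all of these genes, and a gene was called at an adjusted p under 0.05. Intervals cover 95%. The script was tested on simulated data. The lowest correlation within a group was 0.97, and 0 pairs of libraries were identical. Alternatives were other pseudocounts and filters, scaling to equal total FPKM, to 23 spike-ins present in all libraries or to median ratios, a replicate block, fits of only the groups compared and fits without 1 library. Removal of trends on GC content and length (12555 genes with a value) and the comparison of the lines under THZ531 were added after seeing the data.

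The 8 genes and the lists were chosen with earlier results of these data known. List genes named are called genes with the smallest p, without overlap and with at least 5 FPKM, up to 3 in each direction in a comparison, and not all of these are printed. Results of some genes in the lists are not reported here.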

Additional observations from a re-analysis of the deposited data

Results flagged for a closer look

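In the main values the same treatment changed the genes named here by different amounts in the 2 lines, as tested by the difference of the effects (C312S minus WT, log2, limma, adjusted over 12816 genes). Such differences were common: for YKL at 500 nM against DMSO 34.7% of all tested genes were higher and 39.0% lower in C312S. For adding 500 nM to THZ531 these shares were 20.5% and 21.0%. For the YKL 500 nM effect against DMSO, SQLE differed by 0.24 (adjusted p = 0.00216), INSIG1 by 0.53 (1.77e-06), FDFT1 by -0.87 (3.42e-13), IDI1 by -0.93 (3.4e-09), LSS by 1.41 (3.16e-14), DHCR7 by 0.87 (2.83e-10) and SREBF2 by 1.11 (4.23e-15). For the YKL 2 µM effect against DMSO, SQLE differed by 0.36 (adjusted p = 1.99e-05), INSIG1 by 0.40 (9.24e-05), FDFT1 by -0.57 (3.37e-09), IDI1 by -1.05 (2.68e-10), LSS by 1.17 (2.33e-12), DHCR7 by 0.91 (1.08e-10) and SREBF2 by 0.84 (2.47e-12). For the THZ1 effect against DMSO, HMGCS1 differed by 0.31 (adjusted p = 0.000723), SQLE by 0.54 (1.02e-07) and INSIG1 by 0.76 (1.86e-08). For YKL 500 nM added to THZ531, SQLE differed by 0.21 (adjusted p = 0.0103), INSIG1 by 0.59 (1.12e-06), LSS by 0.37 (0.00173) and DHCR7 by 0.28 (0.0109). For YKL 2 µM added to THZ531, SQLE differed by 0.36 (adjusted p = 4.48e-05), INSIG1 by 0.47 (2.28e-05), FDFT1 by -0.30 (0.000222), IDI1 by -0.42 (0.00112), LSS by 0.49 (5.28e-05) and DHCR7 by 0.53 (7.97e-06). The effects against DMSO share the C312S DMSO libraries, which stand apart from most other groups in total FPKM and GC dependence, and the effects of adding YKL do not use them. The part of these libraries in the differences was not tested. With spike-in scaling FDFT1 and IDI1 took the other sign for both YKL doses against DMSO. Under that scaling SQLE, LSS and DHCR7 were not called for adding 500 nM, nor FDFT1 and IDI1 for adding 2 µM. With equal total FPKM SQLE and DHCR7 were not called for adding 500 nM.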

How the results depend on the processing

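Depth is unknown, since FPKM carries no counts, so no counting interval could be given, and 3 libraries a group limit each value. Counts of called genes are said to move here where they change by over 1.5 times. None of the 25 did with pseudocounts of 0.1 and 5, a filter of 5 FPKM, median-ratio scaling or fits of only the groups compared, but single calls changed: of 200 member changes, 1 gained a call with a pseudocount of 5 (SREBF2 under THZ1 in WT, adjusted p = 0.0484), 3 gained and 4 lost one with median-ratio scaling, 3 gained and 7 lost one with only the groups compared, and 5 lost one without the filter. Without the filter the call between the YKL doses in WT was lost (0 in place of 1). Leaving out 1 library at a time left the count of called genes within 1.5 times in 170 of 180 fits. The exceptions are both dose comparisons of YKL, each with 0 to 1 genes called. Of 1440 member changes so refitted 31 lost their call and 7 gained one. The FDFT1 call for YKL at 2 µM in WT was lost without WT DMSO replicate 1 (-0.09, adjusted p = 0.127). With the replicate block 2 of the 25 counts changed, by 1 gene each: SREBF2 under THZ1 in WT was called (0.10, adjusted p = 0.0456), and IDI1 between the lines under THZ531 was not (-0.23, adjusted p = 0.0632). Libraries of equal number did not deviate together in the median (correlation 0.000828 over 63 pairs in WT and -0.0039 in C312S, with 7 and 8 pairs above 0.1). A median over pairs cannot exclude a batch shared by some of the libraries. The cause of the changes below was not tested.

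With spike-in scaling, these log2 changes took the other sign. For YKL at 500 nM in WT, FDFT1 moved to -0.62. For THZ1 in WT, HMGCS1 moved to -2.07, SQLE to -2.12, FDFT1 to -1.99, LSS to -2.10, DHCR7 to -2.17, SREBF2 to -2.23, LIPA to -1.15 and SCD to -1.48. For the WT combination at 500 nM, FDFT1 moved to -0.13 and IDI1 to -0.36. For the WT combination at 2 µM, HMGCS1 moved to -0.86, FDFT1 to -0.45 and IDI1 to -0.78. For YKL at 500 nM in C312S, HMGCS1 moved to 0.70, SQLE to 0.99, INSIG1 to 0.74, FDFT1 to 0.32 and IDI1 to 0.0888. For YKL at 2 µM in C312S, HMGCS1 moved to 0.90, SQLE to 1.13, INSIG1 to 0.72, FDFT1 to 0.57 and IDI1 to 0.20. For THZ531 in C312S, HMGCS1 moved to 1.35, FDFT1 to 0.83 and IDI1 to 0.81. For the C312S combination at 500 nM, HMGCS1 moved to 0.99, INSIG1 to 1.02, FDFT1 to 0.56 and IDI1 to 0.42. For the C312S combination at 2 µM, HMGCS1 moved to 0.67, INSIG1 to 0.52, FDFT1 to 0.37 and IDI1 to 0.0574. For C312S against WT under DMSO, FDFT1 moved to -0.77 and IDI1 to -1.01. For adding 500 nM YKL in WT, FDFT1 moved to -0.26 and IDI1 to -0.32. For adding 2 µM YKL in WT, HMGCS1 moved to -0.98, FDFT1 to -0.58 and IDI1 to -0.74. For adding 500 nM YKL in C312S, HMGCS1 moved to -0.36, FDFT1 to -0.28 and DHCR7 to -0.35. For adding 2 µM YKL in C312S, HMGCS1 moved to -0.68, FDFT1 to -0.47, IDI1 to -0.75 and DHCR7 to -0.74. For the YKL doses in WT, HMGCS1 moved to 0.53, SQLE to 0.45, FDFT1 to 0.38 and DHCR7 to 0.46. For the difference between lines in YKL at 500 nM, HMGCS1 moved to 1.69, FDFT1 to 0.94 and IDI1 to 0.87. For the difference between lines in YKL at 2 µM, FDFT1 moved to 0.81 and IDI1 to 0.31. In the line difference in THZ1, FDFT1 moved to 2.12 and SREBF2 to 2.07. In the line difference on adding 2 µM YKL, FDFT1 moved to 0.11. The number of the 8 genes called became 0 in place of 3 for THZ531 in WT, 2 in place of 6 for THZ1 in C312S, 8 in place of 5 for adding 500 nM YKL in WT, 8 in place of 0 for adding 500 nM YKL in C312S, 8 in place of 4 for adding 2 µM YKL in C312S, 8 in place of 1 for the YKL doses in WT, 0 in place of 1 for the YKL doses in C312S, 8 in place of 3 for the line difference in THZ1, 1 in place of 4 for the line difference on adding 500 nM YKL and 1 in place of 7 for C312S against WT under THZ531.

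With equal total FPKM, these log2 changes took the other sign. For YKL at 500 nM in WT, DHCR7 moved to 0.0215. For YKL at 2 µM in WT, FDFT1 moved to 0.16, IDI1 to 0.29, DHCR7 to 0.0013 and SREBF2 to 0.11. For the WT combination at 500 nM, HMGCS1 moved to 0.14. For YKL at 500 nM in C312S, HMGCS1 moved to 0.0671, SQLE to 0.35 and INSIG1 to 0.15. For YKL at 2 µM in C312S, HMGCS1 moved to 0.15, SQLE to 0.38 and INSIG1 to 0.0232. For THZ531 in C312S, HMGCS1 moved to 0.24. For the C312S combination at 500 nM, HMGCS1 moved to 0.28 and INSIG1 to 0.36. For the C312S combination at 2 µM, HMGCS1 moved to 0.27 and INSIG1 to 0.16. For C312S against WT under DMSO, IDI1 moved to -0.0822. For the difference between lines in YKL at 500 nM, HMGCS1 moved to 0.17. The number of the 8 genes called became 1 in place of 0 for adding 500 nM YKL in C312S.

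With GC and length trends removed, an alternative chosen after seeing the data, these log2 changes took the other sign. For the WT combination at 2 µM, HMGCS1 moved to -0.0599. For YKL at 500 nM in C312S, HMGCS1 moved to 0.0389 and SQLE to 0.0215. For YKL at 2 µM in C312S, HMGCS1 moved to 0.11 and SQLE to 0.0242. For THZ531 in C312S, HMGCS1 moved to 0.12. For the C312S combination at 500 nM, HMGCS1 moved to 0.13. For the C312S combination at 2 µM, HMGCS1 moved to 0.18. For adding 2 µM YKL in WT, HMGCS1 moved to -0.0139. For the difference between lines in YKL at 500 nM, HMGCS1 moved to 0.35. In the line difference on adding 2 µM YKL, SREBF2 moved to -0.20. The number of the 8 genes called became 5 in place of 8 for YKL at 500 nM in C312S, 2 in place of 1 for the YKL doses in WT and 3 in place of 1 for the YKL doses in C312S.

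The counts for the lists of related genes moved by over 1.5 times in the following cases, besides those whose splits are given above. On adding 2 µM YKL in C312S, spike-in scaling called 18 SREBP regulators in place of 7, 16 uptake genes in place of 7, 16 fatty acid genes in place of 6, 15 other enzymes in place of 8 and 8 LXR and efflux genes in place of 5. On adding 500 nM in C312S it called 14 other enzymes in place of 0, and equal total FPKM 1. On adding 2 µM in WT, spike-in scaling and equal total FPKM each called 8 LXR and efflux genes in place of 5. Other cases were 10 LXR and efflux genes without the filter in place of 5 on adding 2 µM YKL in WT, 4 SREBP regulators in place of 7 on adding 2 µM in C312S when only the groups compared were fitted, 3 LXR and efflux genes in place of 5 there without replicate 3 of the combination, and 6 fatty acid genes in place of 10 for YKL at 2 µM in WT without its replicate 3.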
